A study of Gallus gallus with 16 samples.

Results

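The genes described here are those of the mitochondrial respiratory chain and ATP synthase in the gonads of chicken embryos at embryonic day 19. They were chosen by name: symbols beginning with NDUF (complex I), SDH followed by A, B, C or D (complex II), UQCR (complex III), COX and a digit (complex IV), ATP5 (complex V, the ATP synthase) or MT- (encoded by the mitochondrial genome). Of 14074 genes in the table, 82 met this rule. By the chromosome names in the file, 63 of them were counted as autosomal. The file placed 4 on the Z chromosome, 9 on the mitochondrial genome and 6 on scaffolds with no chromosome. ATP5B lay on the linkage group LGE22C19W28_E50C23, which was counted as autosomal here.

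Gonads of females and males were collected after tributyltin (an organotin, 10 pg of tin per g body weight), after sesame oil, after methyltestosterone (an androgen made synthetically, given at 30 pg for each g of body weight) and from untreated embryos. RNA came from pools of 10 individuals, and the labels describe 16 libraries, separate for the left and the right gonad. The table joins left and right into 8 columns of values, 1 for each sex and substance. No genotype or strain and no vehicle for either compound was given, so sesame oil served as the control of tributyltin by its label alone, and the untreated embryos as that of methyltestosterone.

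The respiratory chain passes electrons from NADH and succinate through complexes I to IV to oxygen, and the proton gradient built on the way drives ATP synthase. Most subunits are nuclear genes whose proteins are imported, while the mitochondrial genome encodes a small set of core subunits of complexes I, III, IV and V. In the gonad the inner mitochondrial membrane also holds the first enzymatic step of steroid synthesis. Female birds have a single Z chromosome and males a pair, and birds lack a mechanism that silences a whole Z in males.

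Levels are RPM, tags scaled to a total of 1000000 per column, from SuperSAGE, which counts a short tag beside the last NlaIII site of each polyadenylated transcript, so a level needs no correction for length. A difference is on the log2(RPM + 1) scale from an additive model of sex and substance over the 8 columns (limma), and a gene was called at a Benjamini-Hochberg adjusted p under 0.05 across the 9280 genes tested. A fold on this scale understates the change of low genes. Each column is the authors' joined value, so a p-value reflects only how far columns scatter around the additive fit. This scatter may be technical, and it also holds any unlike response of the sexes to a substance. It was estimated over all columns without weights for their depth. A substance effect in 1 sex has no test. Of the 82 members, 73 were tested: 55 autosomal, all 4 Z-linked, all 9 mitochondrially encoded and 5 of those without a chromosome. The 9 others were too low in most columns.

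The columns form 2 sets by depth. The tributyltin and sesame oil columns held 314810 to 508095 tags, and the methyltestosterone and untreated columns 1953798 to 6669049, so 1 tag was worth 1.97 to 3.18 RPM in the shallow set and 0.15 to 0.512 RPM in the deep one. Comparisons of tributyltin with oil, and of methyltestosterone with untreated, lie within a set, while oil against untreated crosses the sets. Cell markers also moved. AMH, SOX9 and 3 other Sertoli markers summed to 983 to 6828 RPM in females and 6981 to 11616 RPM in males, but this sum was mostly AMH. In females AMH had 6774 RPM after methyltestosterone and 1486 RPM untreated, and DMRT1 and CLDN11 also rose. SOX9 fell, with 13.6 and 30.8 RPM in these columns. DMRT1 after oil had 6.35 RPM in females and 4.06 RPM in males, on 2 tags each. The sum of 4 granulosa markers was 190.3 to 286 RPM in females and 6.09 to 66.0 RPM in males. Markers of tissue next to the gonad were higher in females: 5 mesonephros genes summed to 373 to 1142 RPM in females and 22.3 to 119 RPM in males. Red cell genes summed to 9860 to 16659 RPM in females and 2886 to 6891 RPM in males. The sum of steroidogenic markers, mostly CYP17A1, was close, at 9884 to 13030 RPM in females and 9557 to 12650 RPM in males. Single ones differed. HSD3B2 was higher in males at each substance, at 454 to 734 RPM in females and 817 to 1594 RPM in males. STAR was higher in females at each substance, at 13.0 to 133 RPM against 1.02 to 45.3 RPM in males. CYP17A1 and CYP11A1 went either way by substance. The part of all these markers in the differences below was not tested. In pooled tissue, fewer cells of a type and less RNA per cell cannot be told apart.

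As a group, the 9 mitochondrially encoded members were the most abundant, though MT-ATP8 was below many nuclear members. They held 2.57% to 6.21% of all tags, against 1.60% to 2.13% for the 73 nuclear members together. Means over the 8 columns were 8367 RPM for MT-ND1, 8306 RPM for MT-CYB (cytochrome b of complex III), 7163 RPM for MT-ND4 and 5340 RPM for MT-CO3. MT-ND3 and MT-ND2 averaged 4385 and 4319 RPM, MT-ND5 3379 RPM and MT-CO1, the catalytic core of complex IV, 1956 RPM. The lowest was MT-ATP8 of ATP synthase, at 127 RPM. This gene overlaps ATP6 in vertebrate mitochondrial genomes and the strand use of the counting is not given in the sources used here, so its tags cannot be parted from those of its neighbour with certainty. Among other mitochondrial entries with a symbol, 3 protein genes lay outside the name rule. They were ATP6 at 7886 to 16404 RPM, ND6 at 6910 to 16231 RPM and ND4L at 60.4 to 164 RPM over the columns. The mitochondrial entry gga-mir-3527 had 8669 to 27232 RPM. Further entries had no symbol, so the protein genes named here may not be the full set.

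Among autosomal members, levels ranged widely within each complex. COX4I1, the regulatory subunit of complex IV, had the highest mean at 1295 RPM. NDUFA4, named for complex I but a subunit of complex IV, averaged 1200.3 RPM, NDUFS5 of complex I 1184 RPM and ATP5B, the catalytic beta subunit of ATP synthase, 1170.0 RPM. COX6A1 and COX6C of complex IV averaged 1130.0 and 1073 RPM, and ATP5H and ATP5O, subunits of the ATP synthase stalk, 848 and 829 RPM. At the other end COX5A, a core-associated subunit of complex IV, averaged 3.90 RPM and the complex I subunit NDUFB3 3.03 RPM. UQCR10, NDUFA2, NDUFV3 and NDUFB4 averaged under 1 RPM. Among members without a chromosome ATP5D, the delta subunit of ATP synthase, had no tag in any column. The upper 95% Poisson limit was 11.7 RPM in the female oil column and lower in the others. Whether members with low or no counts had few transcripts, or a tag that was not assigned to them, was not tested. Sums were also taken over the nuclear subunits of each complex, without the mitochondrially encoded ones. They ran from 4794 to 5286 RPM over the columns for complex I and from 5473 to 7862 RPM for complex IV. For complex V they ran from 2847 to 4703 RPM, for complex III from 1410 to 2345 RPM and for complex II from 507 to 1029 RPM. The sum of nuclear complex I subunits had a narrow range, but NDUFS5 makes up a large part of it. This subunit had 1183 to 2046 RPM in the tributyltin and oil columns and 636 to 895 RPM in the others. The range of the sum therefore depends on NDUFS5 and does not show that the other subunits kept their level.

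**Figure D1:**
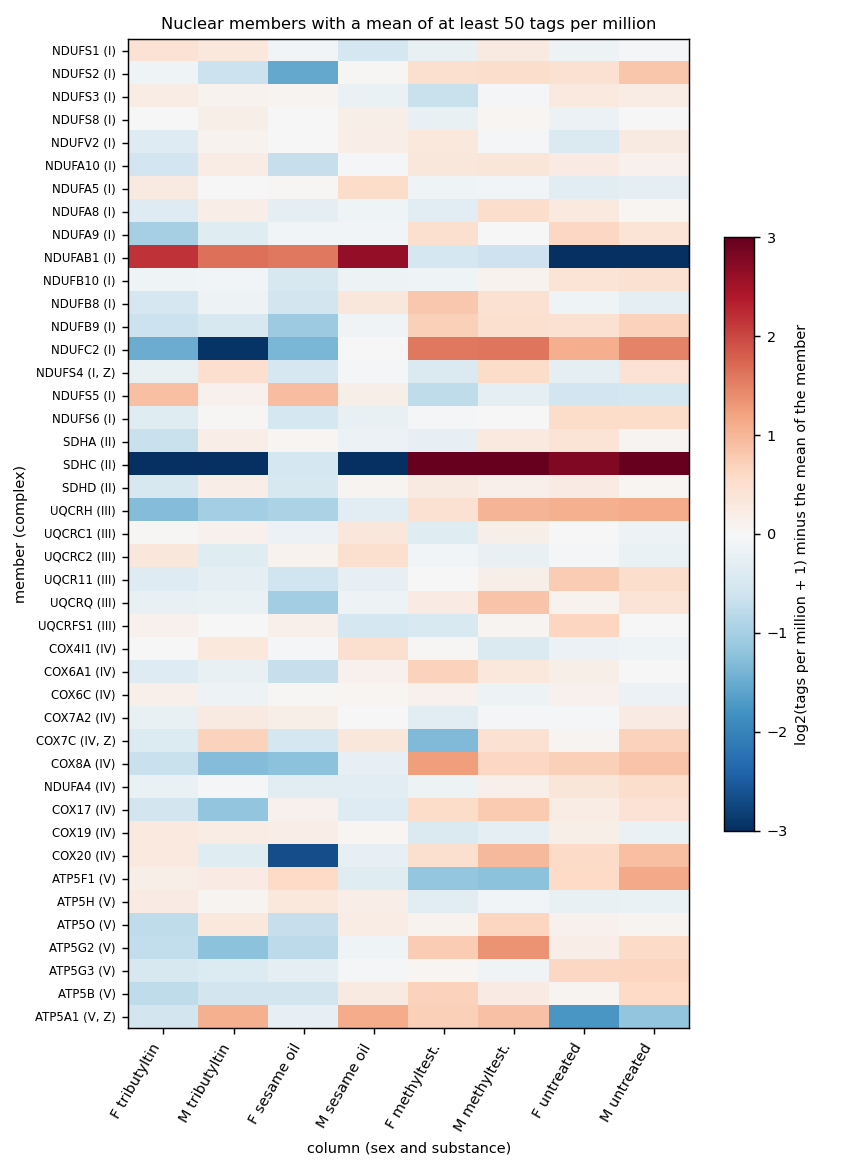
Nuclear members with a mean of at least 50 RPM, grouped by complex (in parentheses), with columns by substance and sex (F female, M male). Colour gives log2(RPM + 1) minus the mean of the member over the 8 columns. Most members are pale. NDUFAB1, NDUFC2, SDHC, COX20 and ATP5A1 change colour between columns of different substances, some of which also differ in depth.

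Spread over the columns was read for the 36 of 63 autosomal members with a mean of at least 50 RPM and a tag in every column. The ratio of the highest to the lowest column had a median of 2.12. It was under 2 for 16 of them (44.4%) and over 10 for 3 (8.33%). The same ratio had a median of 2.81 over 2943 autosomal genes chosen by the same limits, and it was under 2 for 18.6% and over 10 for 5.84%. Mean level was not matched between members and other genes, and its part was not tested. COX6C varied by 1.26 times, from 944 to 1188 RPM, and NDUFS8, a core iron-sulfur subunit of complex I, by 1.31 times, from 204 to 266 RPM. The 3 members over 10 were NDUFAB1, the mitochondrial acyl carrier protein that is also a complex I subunit, at 96.9 times, NDUFC2 of complex I at 26.4 times and COX20, an assembly factor of complex IV, at 14.3 times. The lowest columns of these 3 rest on few tags, so the ratios are uncertain. COX20 had 2 tags in the female oil column, under the floor of 3 tags. NDUFC2 had 4 tags in the male tributyltin column, and NDUFAB1 8 tags in the untreated female one. Among the mitochondrially encoded members MT-CO1 varied least, by 1.65 times, and MT-ATP8 most, by 19.0 times.

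**Figure D2:**
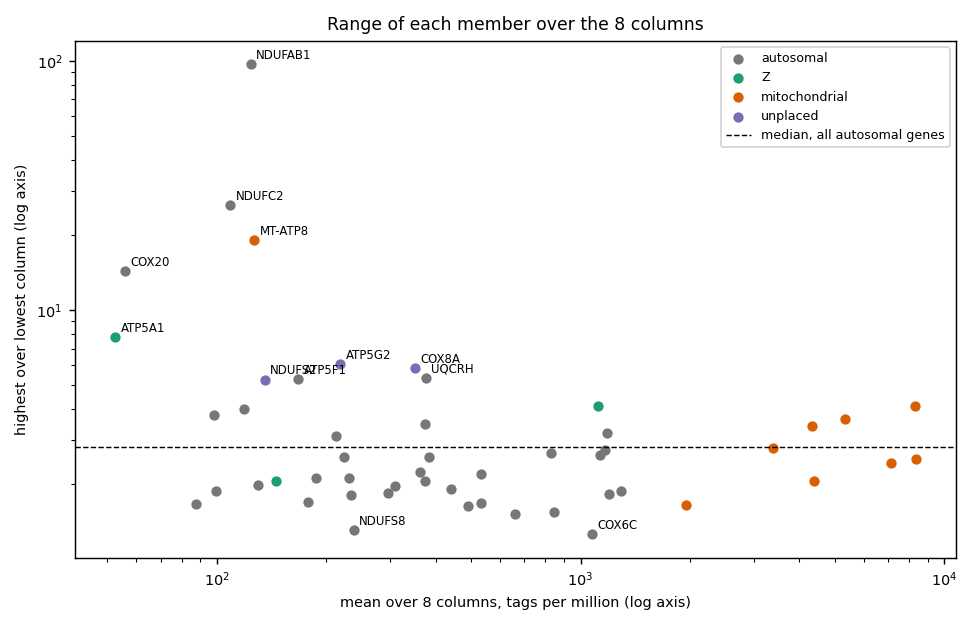
Mean over the 8 columns (x, RPM, log axis) against the ratio of the highest to the lowest column (y, log axis) for members with a mean of at least 50 RPM and a tag in every column. The dashed line is the median of all autosomal genes under the same limits (2.81); most autosomal members lie below it, COX6C lowest at 1.26, and NDUFAB1 lies highest at 96.9.

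Females were compared with males over all 4 substances, each sex with 4 columns. Of 73 members tested 2 were called, COX7C lower and ATP5A1W higher in females, while 5.96% of all tested genes were called, 3.67% higher and 2.28% lower. Of all Z-linked genes 11.0% were called lower in females. No mitochondrially encoded and no autosomal member was called.

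COX7C, a small Z-linked subunit of complex IV, fell in females. Females had 772 RPM after tributyltin, 712 RPM after oil, 404 RPM after methyltestosterone and 1075 RPM untreated. Males had 1645 RPM after tributyltin, 1283 RPM after oil, 1389 RPM after methyltestosterone and 1659 RPM untreated. Every female column was below every male one, and the log2 difference was -1.09 (SE 0.21; limma, adjusted p = 0.0125), lower in 4 of 4 pairs of columns. The female to male ratio was 0.469 after tributyltin, 0.555 after oil, 0.648 in untreated embryos and 0.291 after methyltestosterone. The last of these ratios had a 95% counting interval of 0.275 to 0.309 and the untreated ratio one of 0.615 to 0.683, so the difference between these columns was larger than counting error. Such intervals cover counting error only, since PCR copies are not independent molecules. The call was lost with no filter on low values (limma adjusted p = 0.0764), without the female tributyltin column (0.0859), without the male one (0.0822) and within the tributyltin and oil columns alone (0.205), where the log2 difference was -0.97. Within the methyltestosterone and untreated columns alone it was -1.20 (limma adjusted p = 0.00912).

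NDUFS4, a Z-linked complex I subunit needed for assembly of the matrix arm, had 118 RPM after tributyltin, 98.5 RPM after oil, 103 RPM after methyltestosterone and 114 RPM untreated in females. In males it had 197 RPM after tributyltin, 136 RPM after oil, 203 RPM after methyltestosterone and 190 RPM untreated. The female and male columns did not overlap either, but the log2 difference of -0.72 (SE 0.19) missed the threshold by little, at a limma adjusted p of 0.0516. Groups that did not overlap and were lower in females made up 3.53% of all tested genes and 16.3% of Z-linked ones. The complex I assembly factor NDUFAF2 ran from 0 to 20.3 RPM over the columns, on 0 to 26 tags, and was not called.

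ATP5A1, the Z-linked alpha subunit of ATP synthase, had 28.3 RPM after tributyltin, 34.9 RPM after oil, 69.1 RPM after methyltestosterone and 11.7 RPM untreated in females. Males had 88.6 RPM after tributyltin, 91.3 RPM after oil, 78.1 RPM after methyltestosterone and 17.9 RPM untreated. Females were lower in each of the 4 pairs, the groups overlapped, and the log2 difference of -0.93 (SE 0.32) was not called (limma adjusted p = 0.138). The table also lists ATP5A1W, whose name denotes the copy on the female-specific W chromosome and which the file places on a scaffold.

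ATP5A1W had 15.4 RPM after tributyltin, 38.1 RPM after oil, 1.90 RPM after methyltestosterone and 2.61 RPM untreated in females. Males had 0 RPM after tributyltin, 2.03 RPM after oil, 0.6 RPM after methyltestosterone and 0 RPM untreated. Over all columns this was 30 tags in females and 5 tags in males, and the log2 difference was 2.61 (SE 0.66; limma, adjusted p = 0.0456), higher in 4 of 4 pairs. The call rests on few tags and was lost in 15 of 19 alternatives, among them the omission of any 1 of the 8 columns (adjusted p 0.0542 to 0.177), with adjusted p-values up to 0.281. The log2 difference ran from 1.35 in the methyltestosterone and untreated columns alone to 3.86 in the tributyltin and oil columns alone. How tags shared by the Z and W copies were assigned is not given in the sources used here, so the split of the pair is uncertain. Summed, the pair had 43.7 RPM in females and 88.6 RPM in males after tributyltin, 73.1 and 93.4 RPM after oil, 71.0 and 78.7 RPM after methyltestosterone, and 14.3 and 17.9 RPM in untreated females and males. The sum was lower in females at each substance, but partly on few tags. ATP5A1 had 27 and 35 tags in untreated females and males, and 11 and 45 tags after oil. No counting interval or test was made for the sum.

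**Figure D3:**
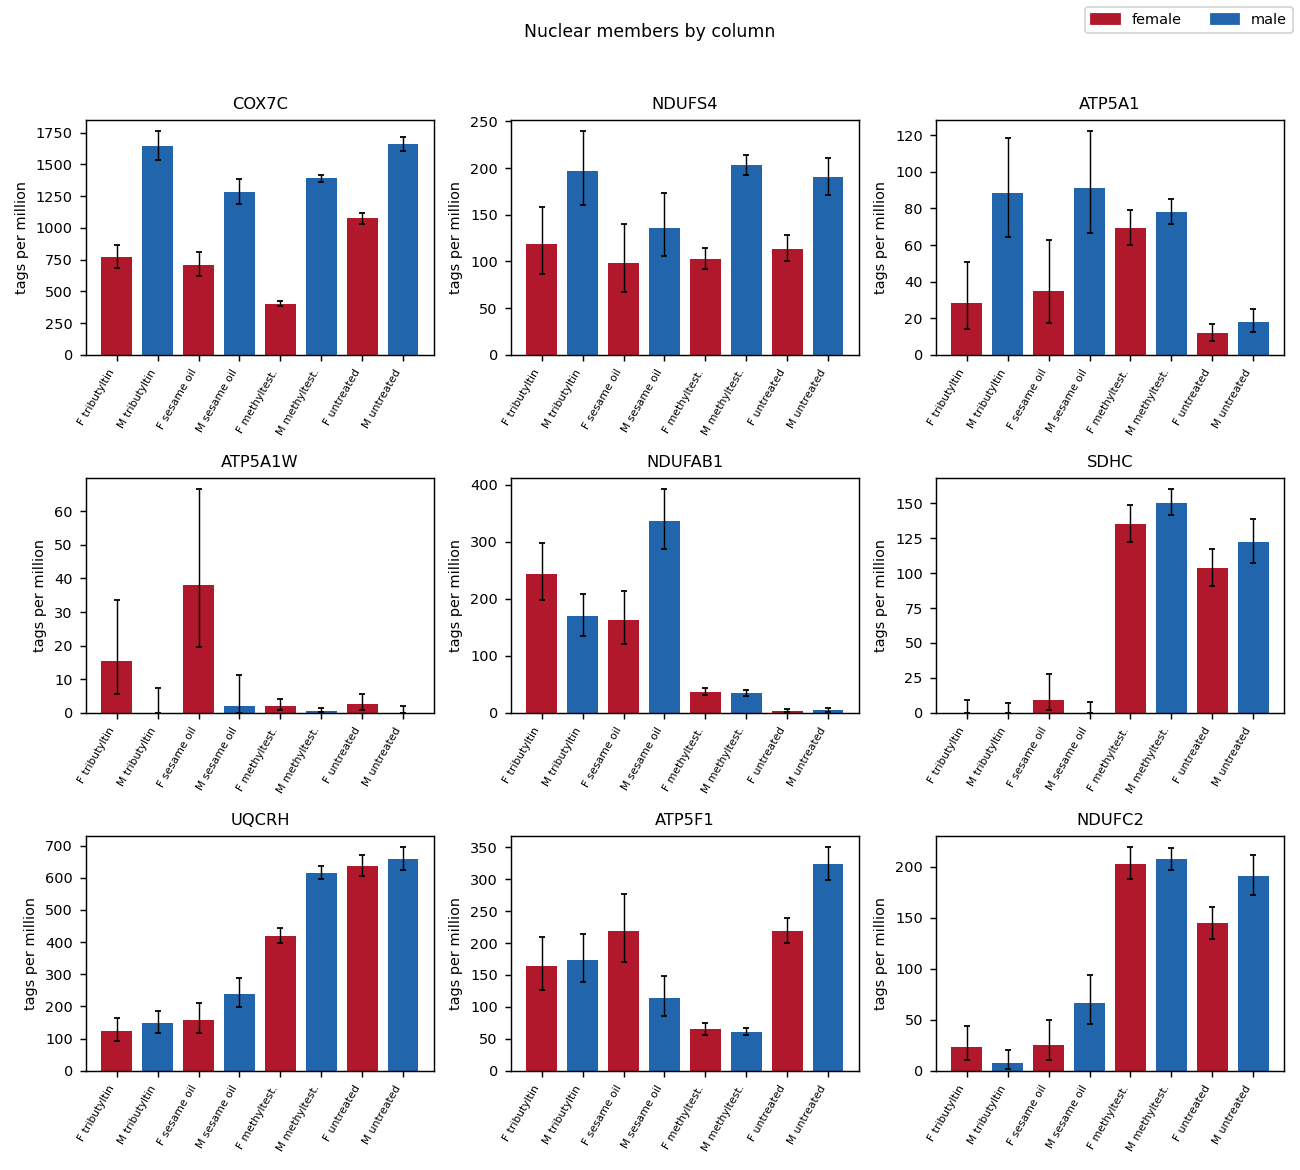
Nuclear members named in the text, by column, tributyltin to untreated from left to right and females (red) left of males (blue); bars give RPM and lines the 95% Poisson interval of the tag count. COX7C and NDUFS4 are lower in every female column than in every male column, and NDUFAB1 and SDHC part the substances rather than the sexes.

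The 4 Z-linked members had a median log2 difference of -1.01, and all 484 Z-linked genes tested one of -0.55. The 55 autosomal members had a median of -0.15, with 37 below 0 and 18 above, while all autosomal genes had a median of 0.08. This median stayed below 0 under every scaling and every omission of a column that was tried. Of these 55, 9 were lower in females in all 4 pairs of columns and none higher, where 10.8% and 14.5% of all tested genes were. The widest of these among the well expressed were the complex III subunits UQCRQ, with 83.1 RPM in females and 114 RPM in males on average (log2 difference -0.46, limma adjusted p = 0.312), and UQCRH, with 335 and 416 RPM in females and males (-0.37, adjusted p = 0.303). NDUFS8 followed, at 222 RPM in females and 254 RPM in males (-0.19, adjusted p = 0.594). None of these passed the test.

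The 9 mitochondrially encoded members had a median log2 difference between females and males of 0.08, whose sign changed with the scaling. Their smallest adjusted p was 0.406, for MT-ND5. By substance, all 9 were higher in females than in males after tributyltin, by a median ratio of 1.83, whereas 3 of 9 were higher in untreated females. This contrast has 1 column a side and no test.

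**Figure D4:**
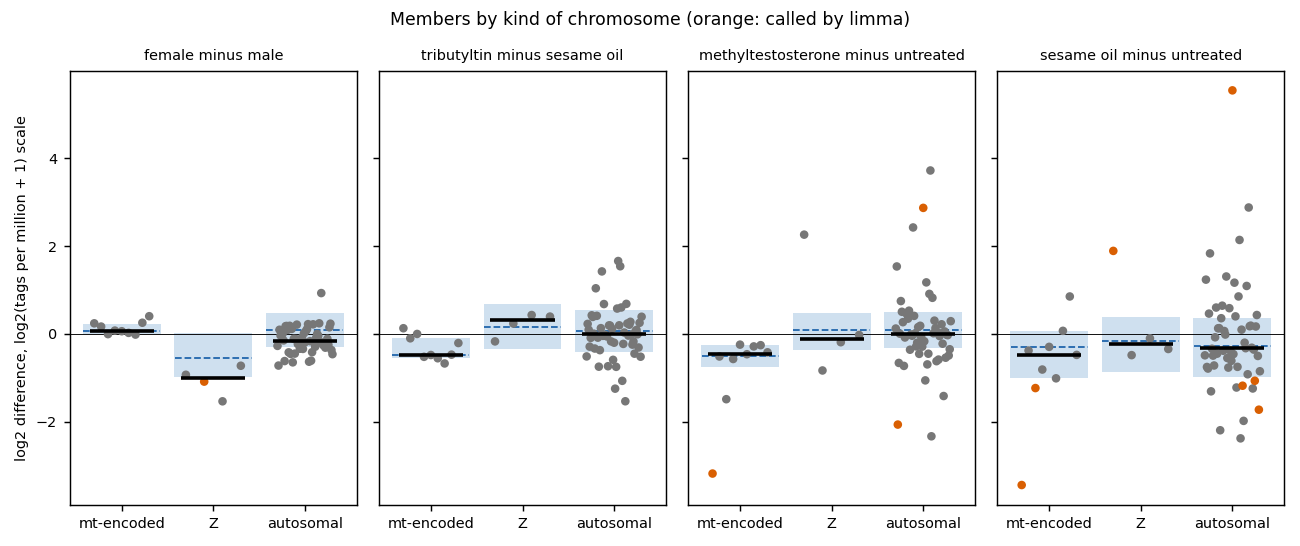
Log2 differences (log2(RPM + 1) scale) of tested members in 4 comparisons, by chromosome kind; orange points were called by limma and black bars are member medians, and members on scaffolds without a chromosome are left out. Blue boxes and dashed lines give the quartiles and the median of all tested genes of that kind; Z-linked members lie at a median of -1.01 between females and males, and mitochondrially encoded members lie below 0 at the median in the 3 substance comparisons.

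Tributyltin was compared with sesame oil with 2 columns each. No member was called, of 73 tested, and none of all 9280 genes (0.0%). An unadjusted p under 0.05 was reached by 4 members (5.48%) and by 10.7% of all genes. On whole tags of all 8 columns edgeR called 11 genes and DESeq2 2 genes, none of them a member.

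The mitochondrially encoded members had a median log2 difference of -0.47 between tributyltin and oil, with 7 of 9 below 0, against 0.06 over all genes. The columns of males and females were unlike, and the difference between the sexes was not tested. In males the 9 genes summed to 25724 RPM after tributyltin and 45690 RPM after oil, a log2 ratio of -0.83, and 8 of 9 were lower. In females the sums were 41297 RPM after tributyltin and 41374 RPM after oil, a log2 ratio of -0.0027, and 5 of 9 were higher. Without the male tributyltin column the median of these members was 0.07, so it rests on that column. Outside the name rule, ATP6, ND6 and ND4L were lower after tributyltin in both sexes, without overlap. In females ATP6 had 12387 RPM after tributyltin and 16404 RPM after oil. The entry gga-mir-3527 and some entries without a symbol went opposite ways in the sexes. Groups that did not overlap and were lower made up 35.3% of the 17 tested genes of the mitochondrial genome and 11.8% of all tested genes.

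In males MT-ND1 had 4407 RPM after tributyltin and 9685 RPM after oil, a ratio of 0.455 (95% counting interval 0.433 to 0.479). In females it had 8056 RPM after tributyltin and 7125 RPM after oil. MT-CYB had 3480 RPM after tributyltin and 8177 RPM after oil in males, and 6960 and 6099 RPM after tributyltin and oil in females. MT-ND4 had 5513 and 9778 RPM after tributyltin and oil in males, and 10062 and 10908 RPM in females. MT-CO3 departed from the rest in males, with 3950 RPM after tributyltin and 3837 RPM after oil. Of the 8 columns the male tributyltin one had the lowest level of 5 of the 9 genes, namely MT-ND1, MT-ND2, MT-ND5, MT-CYB and MT-CO1. The nuclear members summed to 18097 RPM in that column and 19358 RPM in the male oil column.

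**Figure D5:**
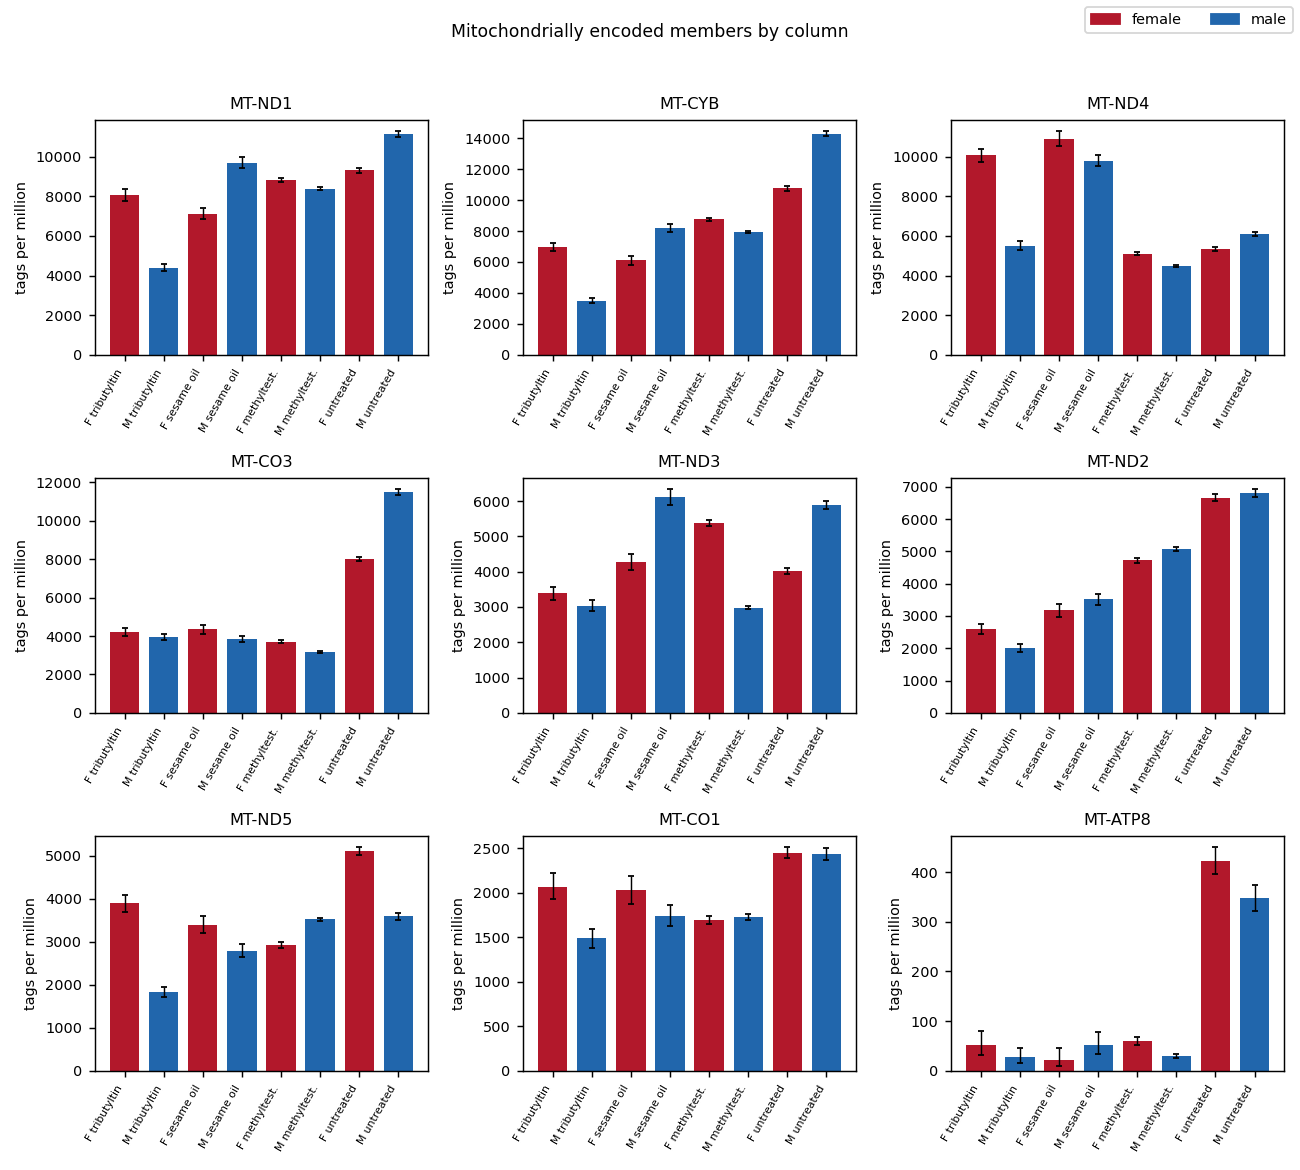
The 9 mitochondrially encoded members by column, tributyltin to untreated from left to right and females (red) left of males (blue); bars give RPM and lines the 95% Poisson interval of the tag count. In males MT-ND1 stands at 4407 RPM after tributyltin and 9685 RPM after oil, and MT-ATP8 and MT-CO3 are highest in both untreated columns.

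Nuclear members went both ways between tributyltin and oil. Of 55 autosomal members 27 were above 0 and 28 below, from -1.53 to 1.66, with a median of -0.01 that ran from -0.15 to 0.11 without 1 column. The Z-linked median was 0.32, over 4 genes and with a sign that changed with the tool, and that of the 5 members without a chromosome was -0.53. NDUFS1, the large iron-sulfur subunit of complex I, had 172 and 159 RPM in females and males after tributyltin, and 121 and 87.3 RPM after oil (log2 difference 0.69, limma adjusted p = 0.455). NDUFC2 had 23.1 and 7.87 RPM in females and males after tributyltin, and 25.4 and 67.0 RPM after oil (-1.53, adjusted p = 0.36). In females this was 9 tags after tributyltin and 8 after oil, and in males 4 and 33, so the difference rests on males. COX17, the copper chaperone of complex IV, had 74.6 and 47.2 RPM in females and males after tributyltin, and 121 and 83.2 RPM after oil (-0.75, adjusted p = 0.446). Smaller differences were seen for NDUFS3 (0.24) and NDUFS6 (0.21) of complex I above 0, and for NDUFA9 of complex I (-0.59) below it. None passed the test.

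Methyltestosterone was compared with untreated embryos with 2 columns each, both in the deep set. Of 73 members 3 were called, NDUFAB1 higher, and ATP5F1 and MT-ATP8 lower after methyltestosterone. Of all tested genes 0.345% were called, 0.226% higher and 0.119% lower. In each of these 3 members the 2 groups did not overlap, as in 28.0% of all genes upward and 18.5% downward.

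NDUFAB1 had 36.8 and 34.6 RPM in females and males after methyltestosterone, and 3.48 and 4.61 RPM in untreated females and males. It rose by 2.87 on the log2 scale (SE 0.42, limma adjusted p = 0.0285), higher in both pairs. ATP5F1, a subunit of the ATP synthase peripheral stalk, had 64.7 and 61.3 RPM in females and males after methyltestosterone, and 219 and 324 RPM untreated. It fell by 2.06 on the log2 scale (SE 0.35, limma adjusted p = 0.0379). MT-ATP8 had 59.3 and 28.8 RPM in females and males after methyltestosterone, and 423 and 347 RPM untreated. It fell by 3.18 (SE 0.50, limma adjusted p = 0.0322). None of these 3 calls held without the female tributyltin column (adjusted p 0.0745 to 0.115) or without the male one (0.0737 to 0.11), or with no filter on low values (0.165 to 0.221), where no gene in the whole table was called. Of 18 alternatives NDUFAB1 lost its call in 4, MT-ATP8 in 6 and ATP5F1 in 7, among them the omission of the male methyltestosterone column for MT-ATP8, of the female one for NDUFAB1 and of either for ATP5F1, and of the female untreated column for MT-ATP8 and the male one for ATP5F1. With edgeR on whole tags of all 8 columns 11 members were called, of 542 genes (5.84%).

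All 9 mitochondrially encoded members had a log2 difference below 0 between methyltestosterone and untreated, with a median of -0.46 against 0.10 over all genes. In 8 of 9 the 2 groups did not overlap, MT-ND3 being the exception. Groups that did not overlap and were lower made up 18.5% of all tested genes and 70.6% of those of the mitochondrial genome, which include these 9 members. Among the other tested entries of that genome, ATP6, ND4L and gga-mir-3527 overlapped and went opposite ways in females and males. ND6 and the entries without a symbol were lower in both sexes. MT-CO3 had 3712 and 3157 RPM in females and males after methyltestosterone, and 8006 and 11499 RPM untreated (log2 difference -1.49, limma adjusted p = 0.0733). MT-CYB had 8754 and 7948 RPM in females and males after methyltestosterone, and 10748 and 14279 RPM untreated (-0.57, adjusted p = 0.778). The 17 tested genes of the mitochondrial genome all lay below 0, with a median of -0.51, and of them 1 was called lower, MT-ATP8. The ratio of mitochondrially encoded to nuclear members was 2.16 in females and 1.83 in males after methyltestosterone, and 2.61 and 2.92 in untreated females and males.

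Among nuclear members, ATP5A1 had 69.1 and 78.1 RPM in females and males after methyltestosterone, and 11.7 and 17.9 RPM untreated (log2 difference 2.26, limma adjusted p = 0.0733). NDUFB8 of complex I had 635 and 495 RPM in females and males after methyltestosterone, and 330 and 304 RPM untreated (0.82, adjusted p = 0.414). COX6A1 had 1751 and 1359 RPM after methyltestosterone, and 1223 and 1098 RPM untreated, again in females and males (0.41, adjusted p = 0.823). ATP5G3, a source of the membrane ring of ATP synthase, had 532 and 470 RPM in females and males after methyltestosterone, and 784 and 797 RPM untreated (-0.66, adjusted p = 0.358). NDUFS3 had 188 and 293 RPM after methyltestosterone, and 370 and 353 RPM untreated, in the same order (-0.62, adjusted p = 0.532). None of these passed the test. The autosomal median was 0.01, and 19 of 55 autosomal members were higher and 18 lower in both pairs, where 39.9% and 28.0% of all genes were.

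COX7C had a ratio of methyltestosterone to untreated of 0.376 in females (95% counting interval 0.351 to 0.403) and 0.837 in males (0.804 to 0.872). The effect fitted over both sexes was a log2 difference of -0.83 (limma adjusted p = 0.363) and was not called.

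Sesame oil was compared with untreated embryos with 2 columns each, across the 2 sets of depth. Oil and set cannot be told apart, and the median of all genes was -0.28 on the log2 scale. Of 73 members 9 were called, 2 higher (NDUFAB1 and ATP5A1) and 7 lower (MT-ATP8, MT-CO3, UQCRH, UQCR11, NDUFB9, COX8A and SDHC), while 6.36% of all tested genes were called, 2.77% higher and 3.59% lower.

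NDUFAB1 had 162 and 337 RPM in females and males after oil, and 3.48 and 4.61 RPM in untreated females and males. It rose by 5.55 on the log2 scale (SE 0.42, limma adjusted p = 0.000197). After tributyltin it stood at 244 RPM in females and 169 RPM in males. In both sexes untreated was lowest, methyltestosterone next and the oil and tributyltin columns highest, with tributyltin above oil in females and below it in males.

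SDHC, a membrane anchor of complex II placed on a scaffold, was low after oil and tributyltin. After oil it had 9.53 RPM in females, from 3 tags, and 0 tags in males, and untreated it had 103 and 122 RPM. After tributyltin it had no tag in either sex, and after methyltestosterone 135 and 151 RPM in females and males. The ratio of oil to untreated was 0.0922 in females (95% counting interval 0.0189 to 0.273). In males the untreated level was 20.1 times the floor of 3 tags in the oil column, a value without counting error. SDHC fell (limma adjusted p = 0.00976), but without the male untreated column the adjusted p was 0.0562. SDHA, the flavoprotein of complex II, had 191 and 162 RPM in females and males after oil, and 245 and 196 RPM untreated. SDHD, the other anchor, had 372 and 550 RPM in females and males after oil, and 615 and 546 RPM untreated. SDHB, the iron-sulfur subunit, had 38.1 and 28.4 RPM in females and males after oil, and 65.6 and 95.7 RPM untreated. All 4 complex II subunits had a log2 difference below 0, with a median of -0.80, against -0.28 over all genes. SDHA, SDHD and SDHB were named beside SDHC after their values had been seen.

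UQCRH, the hinge protein of complex III, had 159 and 240 RPM in females and males after oil, and 637 and 658 RPM untreated. It fell by 1.73 on the log2 scale (SE 0.25, limma adjusted p = 0.00468). UQCR11 of the same complex fell by 1.07 (adjusted p = 0.0367), with 140 and 181 RPM in females and males after oil, and 360 and 310 RPM untreated. UQCRC1, a core protein of complex III named here after its values had been seen, had 432 and 617 RPM in females and males after oil, and 483 and 436 RPM untreated. Members of 1 complex thus did not keep a fixed ratio between these columns.

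MT-ATP8 fell by 3.44 (limma adjusted p = 0.00468), with 22.2 and 52.8 RPM in females and males after oil, and 423 and 347 RPM untreated. MT-CO3 fell by 1.23 (adjusted p = 0.0367), with 4342 and 3837 RPM in females and males after oil, and 8006 and 11499 RPM untreated. MT-ND4 had 10908 and 9778 RPM in females and males after oil, and 5355 and 6095 RPM untreated (log2 difference 0.85, adjusted p = 0.136), so genes of the mitochondrial genome did not share a direction here. COX8A of complex IV fell by 1.52 (adjusted p = 0.0375), and NDUFB9 of complex I by 1.18 (adjusted p = 0.0428). ATP5A1 rose by a log2 difference of 1.89 (adjusted p = 0.0363), with 34.9 and 91.3 RPM in females and males after oil, and 11.7 and 17.9 RPM untreated. Of these 9 calls, those of NDUFAB1 and MT-ATP8 held in all 18 alternatives, UQCRH in 17 and SDHC in 15. COX8A, MT-CO3, UQCR11, NDUFB9 and ATP5A1 each lost theirs in 6 to 10, among them the omission of the female or of the male untreated column.

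Members with large differences that were not called were NDUFS5 at 2046 and 1222 RPM in females and males after oil, and 730 and 751 RPM untreated (log2 difference 1.09, limma adjusted p = 0.0706), and NDUFA5 of complex I (0.59, adjusted p = 0.191). COX20 had 6.35 RPM in females, from 2 tags, and 38.6 RPM in males after oil, and 68.6 and 86.5 RPM untreated (-2.19, adjusted p = 0.0585). NDUFC2 had 25.4 and 67.0 RPM after oil, and 145 and 191 RPM untreated, in females and males (-1.98, adjusted p = 0.0565). NDUFC2 was called in 10 of 18 alternatives, COX20 in 7 and NDUFS5 in 5. The autosomal median was -0.32, against -0.28 for all autosomal genes. Without the female untreated column these were -0.11 and -0.26, and with a minimum mean of 20 RPM -0.37 and -0.21, so which was lower depended on the setting.

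Other mitochondrial gene lists were set beside these members. The 10 electron carriers and subunits under other names, 15 assembly factors under other names, and 14 tested enzymes of the citric acid cycle had no call between females and males. Of 17 tested genes of mitochondrial DNA expression and biogenesis 1 was called, near the 5.96% of all genes, namely PPARGC1A, a coactivator that drives mitochondrial biogenesis. It had a mean of 19.3 RPM in females and 52.3 RPM in males and fell in females by 1.48 on the log2 scale (SE 0.36, limma adjusted p = 0.0365), lower in 4 of 4 pairs, and its call was lost in 9 of 20 alternatives. Of 53 tested proteins of the mitochondrial ribosome 1 was called, the Z-linked MRPS27, with a mean of 52.1 RPM in females and 133 RPM in males (-1.36, adjusted p = 0.00878). This call was lost without the female (0.0539) or the male (0.0563) tributyltin column.

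Between tributyltin and oil, and between methyltestosterone and untreated, none of these 5 lists had a called gene. Between oil and untreated the citric acid cycle enzyme IDH2 fell by 1.41 (adjusted p = 0.0115), with a mean of 169 RPM after oil and 434 RPM untreated. In the mitochondrial ribosome MRPL24, MRPL9 and MRPL10 rose, by log2 differences of 1.21, 3.40 and 4.51, and MRPS17 and MRPS34 fell by 1.73 and 1.27, all by limma with adjusted p-values of 0.00835 to 0.0451. These were 5 calls of 53 genes, with 6.36% called over all genes. Without the female untreated column IDH2, MRPL24, MRPL10, MRPS17 and MRPS34 lost their calls (0.0516 to 0.271), and without the male one MRPL9 and MRPS34 did (0.0514 and 0.377). The median log2 difference of that list was -0.18.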

How the data were processed

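Per the submitters' processing notes, the tags of the SuperSAGE libraries were mapped with Novoalign (no version given) on galGal4. The deposited table gives RPM, tags that the authors brought to 1 common total per column, in 8 columns that join left and right libraries in a way that was not stated. A filler of 0.05 stands for no tag and was set to 0. The other values were within 0.01 of whole tags, which gave 314810 to 6669049 tags per column.

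Values were transformed as log2(RPM + 1). Genes reaching 1 RPM in 4 or more columns were fitted with additive terms for sex and substance in limma 3.58.1 (empirical Bayes with a trend, R 4.3.3), with 3 residual and 7.39 prior degrees of freedom, and p-values were Benjamini-Hochberg adjusted over all tested genes. The plan allowed for counts, but the unit was RPM, so limma was the test. Poisson and conditional binomial 95% intervals cover counting error only, and a floor was 3 tags. Members came from the stated symbols and chromosomes from the file, with linkage groups counted as autosomal. A symbol was missing for 1731 genes.

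The text names every mitochondrially encoded, Z-linked and called member, the 8 autosomal members of highest mean and, per comparison, the 3 largest rises and falls among autosomal members of at least 50 RPM moving alike in all pairs. From the other pathway lists up to 3 called genes a list and comparison were named, and the mitochondrial ribosome's 5 calls against oil were all named after their values were seen. Members and lists were chosen with earlier results of these data known. Results were recomputed with a pseudocount of 0.5 or 5, without the filter, with a minimum mean of 20 RPM in its place, under median-of-ratios scaling, with totals without the mitochondrial genome, with edgeR 4.0.16 and DESeq2 1.42.0 on whole tags, and with columns left out. The planned count tools used 7 columns and left out the untreated female one. With the filler set to 0 that column held whole tags like the others. In these fits the male column alone stood for untreated embryos. Fits on all 8 columns were added after seeing the data. The procedure was tested on simulated data. No sequence is shown.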

Additional observations from a re-analysis of the deposited data

Results flagged for a closer look

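In groups of 4 columns of 1 sex, a column was marked when its gap to the nearest other column took most of the range (Dixon's test at 95%). Of 88 groups 6 were marked. The rate of about 1 in 20 by chance holds for replicates, while these 4 columns are different substances. Many members checked were also named for their differences in these data. The count of marks can therefore not be set against chance. MT-ATP8 stood apart in both untreated columns, at 423 RPM in the female one, with the other female columns at 22.2 to 59.3 RPM, and at 347 RPM in the male one, with the other male columns at 27.6 to 52.8 RPM. MT-CO3 did so too, at 8006 RPM in untreated females, with the others at 3712 to 4342 RPM, and at 11499 RPM in untreated males, with the others at 3157 to 3950 RPM. The sum of the mitochondrially encoded members was 52090 RPM in untreated females and 41172 to 41374 RPM in the other female columns. Summed over all genes of the mitochondrial genome, untreated females did not stand apart, at 90670.5 RPM. The other female columns then had 75219 RPM after methyltestosterone, 96341 RPM after oil and 91526 RPM after tributyltin. COX6C had 1114 RPM in the male oil column and 944 to 963 RPM in the other male columns.

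Summed autosomal members moved in opposite directions between tributyltin and oil in the sexes, with a log2 ratio of 0.025 in females and -0.12 in males. This difference was not tested.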

How the results depend on the processing

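No paired analysis was possible because the joined columns carry no replicate numbers to block on, beyond the terms for sex and substance, which match the columns. No called gene named here changed direction in an alternative that gave it a value. Genes called between females and males, 553 with limma, numbered 193 with no filter, 346 with DESeq2 and 1027 with edgeR (8 columns; 547 higher and 480 lower against 341 and 212), 1026 in the methyltestosterone and untreated columns alone and 27 in the tributyltin and oil columns alone, and 216 to 449 without 1 column. DESeq2's 346 used 7 columns. Members called, 2 in the main fit, numbered 1 (pseudocount 0.5), 0 (no filter), 5 (edgeR, 8 columns) and 0 (tributyltin and oil columns alone), and 0 to 2 without 1 column.

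Between tributyltin and oil, genes called numbered 1 with a pseudocount of 5, 1 with a mean of at least 20 RPM, 5 and 2 with edgeR and DESeq2 on 7 columns, 11 and 2 on 8, and 0 to 49 without 1 column (49 without male oil, with 1 member called of 0 to 1). The median of mitochondrially encoded members ran from -0.79 to 0.066 without 1 column.

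Between methyltestosterone and untreated, genes called numbered 19 and 60 with pseudocounts of 0.5 and 5, 0 with no filter, 80 with a mean of at least 20 RPM, 93 and 49 with edgeR and DESeq2 on 7 columns, 542 and 323 on 8, and 0 to 48 without 1 column. Members called numbered 1, 5, 0, 5 and 7 in the first 5 of these, 11 and 8 on 8 columns, and 0 to 4 without 1 column. The Z-linked median, -0.11, was 0.43 with DESeq2 on 7 columns and -0.58 to 0.48 without 1 column. The split of calls was 21 higher and 11 lower in the main fit, 258 and 284 with edgeR on 8 columns.

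Between oil and untreated, genes called numbered 203 with no filter, 351 and 216 with edgeR and DESeq2 on 7 columns, 1252 and 912 on 8 (529 higher and 383 lower with DESeq2 against 257 and 333), and 124 to 1045 without 1 column. Members called numbered 14 (pseudocount 5), 3 (no filter), 18 (minimum mean of 20 RPM), 5 (scaling by median of ratios), 4 (DESeq2, 7 columns), 20 and 19 (edgeR and DESeq2, 8 columns), and 3 to 14 without 1 column. The Z-linked median, -0.22 over 4 genes, was 0.99 and 0.98 with edgeR and DESeq2 on 7 columns, 0.49 and 0.41 on 8, and -0.56 to 0.65 without 1 column. The cause of these shifts was not tested, and with fewer columns fewer degrees of freedom remain. Left-out columns leave a lone column assumed to vary like the others. In the shallow set, levels under 3 tags (5.90 to 9.53 RPM) could not be read.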
